A study of Mus musculus with 8 samples.

Results

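Paneth cells sit at the base of the small intestinal crypts and release granules of antimicrobial proteins into the crypt lumen. The 7 Paneth cell products considered here were named by gene symbol: Lyz1 (lysozyme, which cuts bacterial cell walls), Mmp7 (matrilysin, the protease that activates alpha-defensin precursors in the mouse), Ang4 (an angiogenin-family ribonuclease with antimicrobial activity), Itln1 (intelectin, a sugar-binding lectin), the alpha-defensins Defa24 and Defa5, and Pla2g2a (a secreted phospholipase). A probe accession on the array matched 5 of them, Lyz1, Mmp7, Ang4, Itln1 and Defa5, with 6 probes in all (2 for Itln1), among 39429 probes and 21303 genes tested. Defa24 and Pla2g2a were matched by no probe accession and are not analysed here. In the C57BL/6J reference the RefSeq entry for Pla2g2a is a transcribed pseudogene. Alpha-defensins form a family of close paralogs, and the 22 probes of 17 alpha-defensin symbols, Defa5 among them, were described together.

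Total RNA of the small intestine was hybridised to 8 single-colour arrays, 2 in each group. The groups were Western-diet females, Western-diet males, control-diet females and control-diet males. All mice were C57BL/6J Min/+, which carry a truncating Apc mutation in every cell and develop intestinal adenomas, so the control animals carried it too. The Western diet was AIN-93G made richer in fat and poorer in fiber, vitamin D, calcium and folate, milk supplying 66.4% of its fat and the oils of sunflower and rapeseed 33.6%, and the control diet was unmodified AIN-93G. Feeding is given as 18 months, ages are not stated, and each array held RNA of 1 to 3 mice. Nothing in the labels states that the arrays within a group hold RNA of separate animals, so a p-value here reflects the scatter among arrays, some of which may be technical. Neither the stretch of intestine sampled nor the share of adenoma tissue is given.

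Paneth cell genes depend on Wnt signalling: beta-catenin and its Tcf partners switch on defensin genes and Mmp7 in maturing Paneth cells, and in mice lacking Mmp7 the defensins stay unprocessed. Because Min mice lose the remaining Apc copy in adenomas, where Wnt signalling is then high, Mmp7 is known both as a Paneth cell product and as a gene of Min adenomas. Lysozyme, defensins, angiogenin and intelectin are stored in the same granules.

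The promoters of 4 of these genes are shown because Tcf sites are the known link between Wnt signalling and this cell type. Several products varied together between arrays, as described below, and whether such sites have a part in this was not tested. Each runs from 250 bases before the transcript start through its first 20 bases, 5′ to 3′ along the gene (RefSeq, GRCm38.p6), and capitals mark the Tcf/Lef core CTTTGA on either strand (TCAAAG when read on the other). Mmp7 lies on the plus strand (chr9:7691840-7692109, the more upstream of its annotated starts), Ang4 on the minus strand (chr14:51773571-51773840) and Lyz1 on the minus strand (chr10:117292849-117293118). RefSeq promoter entries matched 4 of the 7 named products (the fourth was Itln1). Defa5, Defa24 and Pla2g2a were not among them, and the alpha-defensins are represented by Defa21 (plus strand, chr8:21025295-21025564), the lowest-numbered family gene with both a probe and a promoter entry.

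Mmp7: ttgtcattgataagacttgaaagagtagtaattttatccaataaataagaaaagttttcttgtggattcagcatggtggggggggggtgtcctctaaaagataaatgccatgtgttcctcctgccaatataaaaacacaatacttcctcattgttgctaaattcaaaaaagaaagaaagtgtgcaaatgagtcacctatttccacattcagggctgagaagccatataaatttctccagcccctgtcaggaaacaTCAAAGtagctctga
Ang4: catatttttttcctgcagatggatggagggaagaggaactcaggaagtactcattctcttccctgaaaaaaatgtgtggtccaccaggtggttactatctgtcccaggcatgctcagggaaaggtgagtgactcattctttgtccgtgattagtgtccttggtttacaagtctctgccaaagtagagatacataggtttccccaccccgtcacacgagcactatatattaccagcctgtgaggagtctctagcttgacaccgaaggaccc
Lyz1: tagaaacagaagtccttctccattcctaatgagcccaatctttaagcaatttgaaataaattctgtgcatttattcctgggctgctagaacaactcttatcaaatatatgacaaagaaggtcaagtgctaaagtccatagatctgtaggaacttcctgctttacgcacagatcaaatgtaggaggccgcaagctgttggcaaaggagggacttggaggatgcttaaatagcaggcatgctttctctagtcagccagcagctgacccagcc
Defa21: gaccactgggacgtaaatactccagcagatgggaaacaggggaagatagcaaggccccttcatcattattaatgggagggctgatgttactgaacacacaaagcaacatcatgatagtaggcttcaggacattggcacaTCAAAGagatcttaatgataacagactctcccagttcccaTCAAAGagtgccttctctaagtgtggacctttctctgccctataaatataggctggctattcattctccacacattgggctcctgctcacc

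The Defa21 window held 2 Tcf/Lef matches, whose first bases lay at positions -111 and -71 relative to the start, and Mmp7 held 1, beginning at transcript base 6. Ang4, Lyz1 and Itln1 held 0. The motif occurred in 14.7% of 32851 promoter windows of the same length and in 13 of 16 alpha-defensin windows. These 16 windows are copies of one another to a large degree (median pairwise identity 70.7%, from 47.2% to 100%), so they are not independent occurrences. A TATA box (TATAAA on either strand) occurred in 15 of the 16 and in 12.9% of all windows. An AP-1 element (TGANTCA, which reads the same on both strands) occurred in 7.23% of all windows and in 0 of the 16. Mmp7 held 1, with its first base at -63, and Ang4 held 1, with its first base at -122. A match is only a stretch of letters, and binding was not measured here.

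All 5 genes were well above background on all 8 arrays, as were 20 of the 22 alpha-defensin probes; the other 2, for the pseudogenes Defa-ps12 and Defa-ps13, were so on 0 arrays. Markers of enterocytes (7 of 7), goblet cells (6 of 6) and enteroendocrine cells (5 of 5) were above background on every array, and so were the ileal Fabp6 and the proximal Gata4. The 75th percentile of the signal, to which each array was scaled, lay between 486 and 902 intensity units. Control female 2 stood apart from the other arrays (75.6% of probes above background, against 55.1% to 61.9%). The library labelled Control female 1 carried the Y-linked transcripts Ddx3y (-0.46, against -1.04 to -0.67 on male arrays) and Eif2s3y (1.90, against 1.75 to 2.45), in log2 relative to the 75th percentile. On the other female arrays Ddx3y lay between -7.56 and -6.91 and Eif2s3y between -7.28 and -5.58, neither well above background. Results that use the control females therefore rest on arrays in doubt, and differences are also given without each of them. All levels below are on this log2 scale, on which 1 unit is a doubling, and probes of different genes cannot be ranked by it.

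The first question of the design was whether the Western diet changed expression. None of the 5 Paneth cell products differed between the diets beyond the spread of the arrays. By limma, 0 of 5 passed an adjusted p of 0.05 and 0 had an unadjusted p under 0.05. The background was 0 of 21303 genes (0%) at the adjusted threshold and 4.28% at the unadjusted one (911 genes, 138 higher and 773 lower). Of the 5 products, 2 lay higher and 3 lower, with a median difference of -0.01, and the median over all genes was -0.06. In whole-tissue RNA, fewer Paneth cells and less RNA per Paneth cell cannot be told apart.

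Lyz1 was the steadiest of them. It measured 7.83 and 7.87 in Western females and 8.01 and 7.80 in control females, and 7.73 and 8.01 in Western males against 8.04 and 7.94 in control males. The diets overlapped, and the whole spread over 8 arrays was 0.31, or 1.24-fold. The means were 7.86 ± 0.12 on the Western and 7.95 ± 0.11 on the control diet (SD, n = 4 arrays each), a difference of -0.09 ± 0.15 (SE, 95% confidence interval -0.45 to 0.27, limma adjusted p = 0.999). The interval covers folds from 0.734 to 1.20. The SD of Lyz1 over the 8 arrays, 0.11, was below that of all but 3.9% of 16923 genes measured on every array, whose median SD was 0.28.

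Itln1, the lectin, gave the same picture. Its tested probe measured 8.42 and 8.73 in Western females against 8.84 and 8.32 in control females, and 8.30 and 8.87 in Western males against 8.55 and 8.32 in control males. Western male 2 was the highest array and Western male 1 the lowest, so the groups overlapped. The means were 8.58 ± 0.27 on the Western and 8.51 ± 0.24 on the control diet (SD, n = 4 each). The difference was 0.07 ± 0.22 (SE, 95% confidence interval -0.46 to 0.60, adjusted p = 0.999). The second Itln1 probe gave 0.05.

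Defa5, whose probe may also bind transcripts of its paralogs, was the alpha-defensin among the named genes that a probe accession matched. It measured 7.39 and 8.24 in Western females against 7.81 and 7.76 in control females, and 7.65 and 8.07 in Western males against 8.11 and 7.96 in control males. Western female 2 was the highest array and Western female 1 the lowest. The means were 7.84 ± 0.39 on the Western and 7.91 ± 0.16 on the control diet (SD, n = 4 each), which differed by -0.08 ± 0.23 (SE, 95% confidence interval -0.65 to 0.49, adjusted p = 0.999).

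Ang4 and Mmp7 moved more between arrays, within diets as well as between them. Ang4 measured 4.09 and 5.66 in Western females against 4.57 and 4.55 in control females, and 4.24 and 5.27 in Western males against 5.32 and 4.70 in control males. Both Western groups thus held a low and a high array, 1.57 apart in females and 1.03 apart in males, and the range of the 4 Western arrays spans every control value, while within males Control male 1 (5.32) was the highest. The means were 4.82 ± 0.77 on the Western and 4.78 ± 0.36 on the control diet (SD, n = 4 each). The difference was 0.03 ± 0.42 (SE, adjusted p = 0.999), and its 95% confidence interval of -1.0 to 1.06 covers folds from 0.5 to 2.09.

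Mmp7, the protease, measured 2.35 and 4.33 in Western females against 3.12 and 3.06 in control females, and 3.55 and 3.56 in Western males against 4.10 and 3.57 in control males. The highest array (Western female 2) was 3.92-fold above the lowest, and both belonged to the same group. Its SD over the 8 arrays, 0.62, was above that of 89.7% of genes, and that of Ang4, 0.56, above 86.7%. The Mmp7 means were 3.45 ± 0.82 on the Western and 3.46 ± 0.48 on the control diet (SD, n = 4 each). They differed by -0.01 ± 0.44 (SE, 95% confidence interval -1.08 to 1.05, adjusted p = 0.999). A change of 2-fold in Mmp7 or Ang4 in either direction therefore lies within or at the edge of what these arrays leave possible, while the intervals of Lyz1, Itln1 and Defa5 stay inside it. The signals of Lyz1, Itln1 and Defa5 came from the low-gain scan on all 8 arrays, and bright probes had narrow ranges, as described below. Whether this narrows their intervals was not tested.

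**Figure D1:**
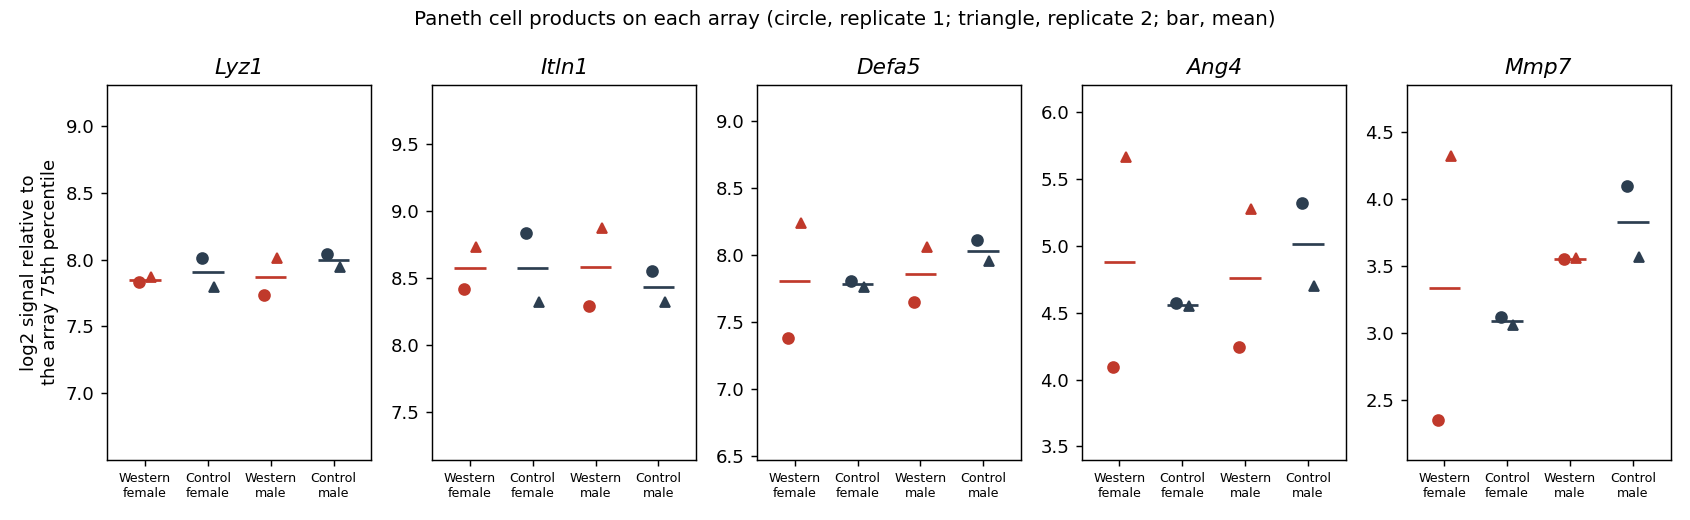
Log2 signal relative to the array's 75th percentile (vertical axis) of Lyz1, Itln1, Defa5, Ang4 and Mmp7 in the 4 groups (horizontal axis), with circles for replicate 1, triangles for replicate 2 and bars for group means. All panels span the same height, so the wide gap between the Western female arrays in Ang4 (4.09 and 5.66) and Mmp7 (2.35 and 4.33) can be set against the narrow spread of Lyz1.

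On neither diet did the values of any of the 5 products lie wholly above or wholly below those of the other: 0 of 5 were without overlap, higher or lower, where 0.864% and 2.29% of genes were. Array slide split the result. Slide 1 held replicate 1 of all 4 groups, and there the differences were -0.25 for Lyz1, -0.34 for Itln1, -0.44 for Defa5, -0.78 for Ang4 and -0.66 for Mmp7, lower on the Western diet for all 5 products and in both sexes. Slide 3 held Western female 2, Control female 2 and Control male 2, and there Western female 2 lay above Control female 2 by 0.07 for Lyz1, 0.41 for Itln1, 0.48 for Defa5, 1.12 for Ang4 and 1.27 for Mmp7. The within-slide differences thus had opposite signs for every product. Slide 3 gives a female pair only, and the pooled values also take in Western male 2 against Control male 2, which lay on different slides. Slide 3 held no Western male array, and Western male 2 was alone on slide 2. The scan of slide 3 was made on the second scan day, those of slides 1 and 2 on the first. With scan day as a block the differences were -0.11 for Lyz1, 0.04 for Itln1, -0.02 for Defa5, 0.11 for Ang4 and 0.10 for Mmp7.

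Without the library labelled Control female 1 the diet differences were -0.035 for Lyz1, 0.20 for Itln1, -0.06 for Defa5, 0.04 for Ang4 and 0.002 for Mmp7. Without Control female 2 they were -0.14, -0.06, -0.09, 0.025 and -0.03 in the same order of genes. For Mmp7, Ang4 and Defa5 the Western female arrays weighed most. Without Western female 1 the difference of Mmp7 was 0.48 and that of Ang4 0.42, and without Western female 2 they were -0.51 and -0.36. Defa5 had 0.14 and -0.29 in these 2 fits, and Itln1 0.15 and -0.007. For Itln1 and Lyz1 the Western males weighed most, with 0.22 and -0.02 without Western male 1 and -0.07 and -0.16 without Western male 2. The direction of the diet difference of Ang4, Mmp7, Defa5 and Itln1 thus depended on 1 array. With no scaling between arrays each of the 5 differences shifted up by the same 0.24, as did the median over all genes (0.18 unscaled, -0.06 scaled), so their place relative to all genes stayed the same.

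Within females, 0 of 5 products passed, against 0% of all genes by adjusted p and 5.10% (1086 genes) by unadjusted p. Lyz1 differed by -0.06 ± 0.21, Itln1 by -0.002 ± 0.31, Defa5 by 0.03 ± 0.33, Ang4 by 0.32 ± 0.60 and Mmp7 by 0.25 ± 0.62 (SE, n = 2 arrays each). In no product were the female groups without overlap (background 9.59% higher and 21.8% lower). Without the library labelled Control female 1 the differences were 0.05, 0.26, 0.05, 0.33 and 0.28 in the same order. That fit rests on Control female 2, the array that stood apart, as the only control female. Without Control female 2 the differences were -0.16, -0.26, 0, 0.305 and 0.22.

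Within males the differences were -0.12 ± 0.21 for Lyz1, 0.15 ± 0.31 for Itln1, -0.18 ± 0.33 for Defa5, -0.25 ± 0.60 for Ang4 and -0.28 ± 0.62 for Mmp7 (SE, n = 2 each), and 0 of 5 passed (background 0% adjusted, 1.30% or 277 genes unadjusted). Mmp7 alone had male groups that did not overlap, 3.55 and 3.56 in Western males against 4.10 and 3.57 in control males. The nearest arrays were 3.56 and 3.57, and 13% of all genes were lower without overlap in that comparison. No product was higher without overlap in males (background 12.1%).

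The diet difference itself was then compared between the sexes. The signed difference in females minus that in males was 0.57 ± 0.84 for Ang4, 0.53 ± 0.87 for Mmp7 and 0.20 ± 0.47 for Defa5 (SE). For Lyz1 it was 0.07 ± 0.29 and for Itln1 -0.15 ± 0.43 (SE). None of these passed (limma adjusted p = 1 for all 5; background 0% adjusted and 1.62%, 346 genes, unadjusted). Without the library labelled Control female 1 these were 0.58 for Ang4, 0.56 for Mmp7, 0.23 for Defa5, 0.17 for Lyz1 and 0.11 for Itln1, and without Control female 2 they were 0.56, 0.50, 0.18, -0.04 and -0.41. Without Western female 1 they were 1.36, 1.52, 0.63, 0.085 and 0.009, and without Western female 2 the sign turned for Ang4 (-0.21), Mmp7 (-0.46) and Defa5 (-0.22), with 0.05 for Lyz1 and -0.31 for Itln1. Within slide 1 they were 0.60 for Ang4, -0.22 for Mmp7, 0.03 for Defa5, 0.13 for Lyz1 and -0.16 for Itln1. All 15 alpha-defensin genes tested had a positive difference, with a median of 0.18, where the median over all genes was -0.14, and 0 of the 15 had an unadjusted p under 0.05. Without Western female 2 only 8 of the 15 were positive (median 0.01), without Western female 1 it was 14 (0.34), without Control female 1 all 15 (0.25) and without Control female 2 it was 11 (0.19). The alpha-defensin genes are close paralogs measured on the same arrays, so these are not 15 independent observations.

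**Figure D2:**
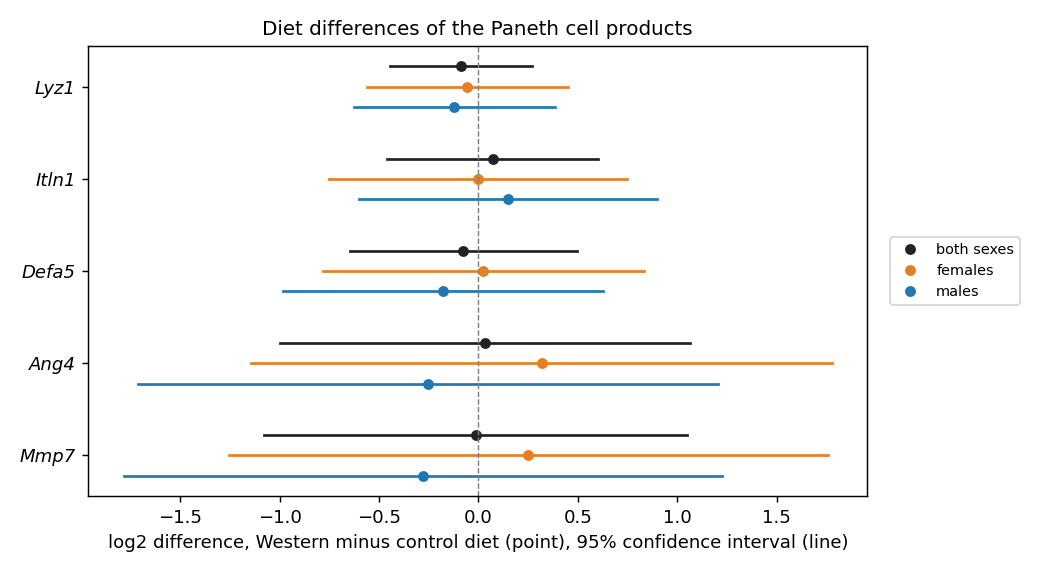
Log2 difference, Western minus control diet (horizontal axis), of the 5 products in both sexes together, in females and in males, with points for the estimates and lines for 95% confidence intervals from limma. Every interval includes 0, and those of Ang4 and Mmp7 are the widest, reaching from -1.0 to 1.06 and from -1.08 to 1.05 over both sexes.

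The second question of the design was sex. Female minus male differences averaged over the diets were -0.06 ± 0.15 for Lyz1, 0.07 ± 0.22 for Itln1, -0.15 ± 0.23 for Defa5, -0.16 ± 0.42 for Ang4 and -0.48 ± 0.44 for Mmp7 (SE, n = 4 arrays each). The smallest adjusted p of the 5 was 0.906, for Mmp7, and 0 of 5 passed (background 0% adjusted, 3.85% or 821 genes unadjusted). Mmp7 averaged 3.21 ± 0.82 on female and 3.69 ± 0.27 on male arrays (SD). In 0 of 5 products were the sexes without overlap (background 1.96% higher and 1.03% lower). Within slide 1 the Mmp7 difference was -1.09 and within slide 3 it was -0.51, while Ang4 had -0.45 and -0.15, Defa5 -0.28 and -0.20, Lyz1 0.03 and -0.15, and Itln1 0.20 and -0.005. Without the library labelled Control female 1 the difference of Mmp7 was -0.50 and without Control female 2 it was -0.465. It was 0.01 without Western female 1, the sign turning, and -0.97 without Western female 2. Ang4 likewise had 0.23 and -0.555 and Defa5 0.07 and -0.36 without these 2 arrays. Without Control female 1 and without Control female 2 the values were -0.17 and -0.16 for Ang4, -0.16 and -0.135 for Defa5, -0.11 and -0.001 for Lyz1, and -0.06 and 0.19 for Itln1.

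The products did not all vary together from array to array. Over the 8 arrays Ang4 and Defa5 ranked the arrays in the same order (Pearson r = 0.95, Spearman rho = 1), Mmp7 followed Defa5 (r = 0.90, rho = 0.90) and Ang4 (r = 0.84, rho = 0.90), and Lyz1 followed Itln1 less closely (r = 0.66, rho = 0.74). Mmp7 had r = 0.29 with Lyz1 and 0.27 with Itln1. The other pairs lay between these, with Ang4 at 0.53 with Lyz1 and 0.60 with Itln1, and Defa5 at 0.55 and 0.51. These are descriptions over 8 arrays that share scaling, slides and tissue, and no p is given. Without the 2 arrays farthest from the median of the first gene named, Ang4 and Defa5 kept r = 0.92 (without Control male 1 and Western female 2), while Mmp7 with Defa5 had 0.65 and with Ang4 0.62 (without both Western female arrays). On unscaled signals the pairs had r = 0.92, 0.97 and 0.89, and Lyz1 with Itln1 had 0.87. The high arrays for Ang4, Mmp7 and Defa5 were Western female 2 and Control male 1, and the low array was Western female 1.

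**Figure D3:**
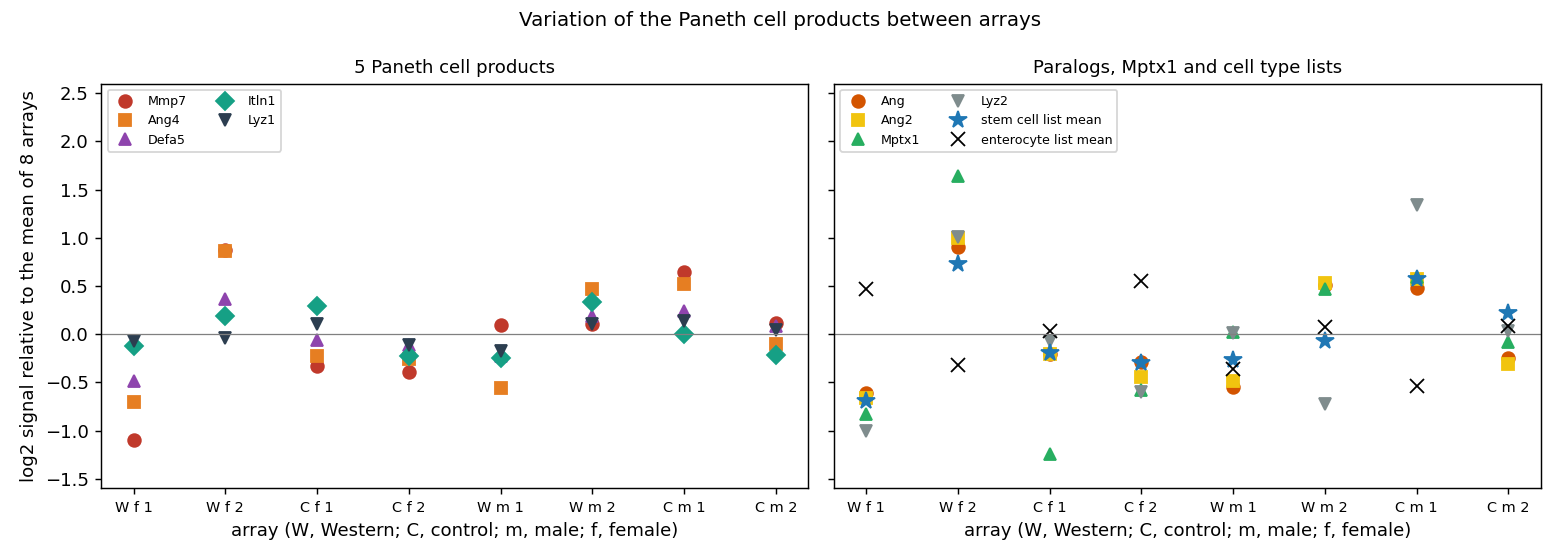
Log2 signal on each of the 8 arrays (horizontal axis) relative to the mean of the 8 (vertical axis), for the 5 products (left) and for Ang, Ang2, Mptx1, Lyz2 and the stem cell and enterocyte lists (right). Mmp7, Ang4 and Defa5 are high on Western female 2 and low on Western female 1, and the enterocyte list (crosses), at -0.32 and 0.47 on these arrays, runs the other way.

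Of the marker lists of other cells, some moved with these 3 genes over all 8 arrays and some did not. The stem cell list (3 of its 4 genes tested: Lgr5, Ascl2 and Smoc2), as a mean relative to the 8 arrays, was 0.73 on Western female 2, -0.69 on Western female 1, -0.26 and -0.07 in Western males, -0.20 and -0.30 in control females, and 0.57 and 0.22 in control males. Its r was 0.94 with Mmp7, 0.92 with Defa5 and 0.88 with Ang4, and 0.85, 0.80 and 0.66 without the 2 farthest arrays. The enterocyte list (7 of 7 tested), whose genes belong to the villus, lay between -0.37 and 0.47 on the Western and between -0.535 and 0.55 on the control diet, with r = -0.82 with Mmp7, -0.58 with Defa5 and -0.53 with Ang4. Without the 2 farthest arrays these were -0.81, -0.24 and -0.08. The enterocyte gene Fabp1 is also on the proximal intestine list (Gata4 and Fabp1), which had r = -0.79 with Mmp7, -0.61 with Defa5 and -0.49 with Ang4. Enteroendocrine genes (5 of 5 tested) had -0.76, -0.51 and -0.51 in the same order. Without the 2 farthest arrays the proximal intestine list had -0.94, -0.49 and -0.26, and enteroendocrine genes -0.81, -0.25 and 0.03. Macrophage genes (6 of 7 tested) ranged from -0.28 to 0.60 on the Western and from -0.43 to 0.36 on the control diet, with r = 0.81 with Mmp7, 0.68 with Defa5 and 0.65 with Ang4, and 0.82, 0.47 and -0.02 without the 2 farthest arrays. Goblet cell genes (6 of 6 tested) had r = -0.20 with Mmp7, 0.02 with Defa5 and -0.05 with Ang4, and tuft cell genes (3 tested) -0.42, -0.12 and -0.10. Without the 2 farthest arrays goblet cell genes had 0.29, 0.81 and 0.71, and tuft cell genes -0.27, 0.38 and 0.51. The smooth muscle list had 0.43, 0.31 and 0.36, and 0.60, 0.33 and -0.72 without the 2 farthest arrays. The 2 arrays with the highest Mmp7 had the highest mean of some lists of other tissues. Fat markers (4 of 5 tested) were at 4.09 on Western female 2 and from -1.35 to -0.28 on the other Western arrays, against -1.03 to 0.36 on the control arrays. Smooth muscle markers (6 of 6 tested) were at 3.56 on Control male 1, against -1.26 to -0.15 on the other controls and -1.505 to 0.38 on the Western diet. The adenoma list (Wif1, Nkd1, Axin2 and Notum, 4 of 4 tested) peaked on Western male 1 (1.26) and was at -0.24 on Western female 2, where Mmp7 was highest (r = 0.24 with Mmp7). Wif1 was above background on only 4 of the 8 arrays, so this mean rests in part on background readings. Wif1 and Nkd1 were highest on Western male 1, but Notum on Western female 1 (3.65) and Axin2 on Control male 1 (-0.36). Erythrocyte genes were also highest on Western male 1 (1.75), plasma cell genes on Control male 2 (0.57) and pancreatic acinar genes on Control female 2 (0.79). The part of any of these tissues in the values of the Paneth cell products was not tested.

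Ang4 has close relatives on the array. Ang, the founding angiogenin of the family, measured 2.75 and 4.27 in Western females, 2.82 and 3.87 in Western males, 3.16 and 3.07 in control females and 3.84 and 3.11 in control males. Ang2, a further ribonuclease of the family, measured 2.19 and 3.86, 2.37 and 3.39, 2.65 and 2.41, and 3.43 and 2.54 in the same order of groups. Both followed Ang4 nearly exactly (r = 0.99 for Ang and 0.98 for Ang2, and 0.98 and 0.95 without Control male 1 and Western female 2). The log2 ratio of Ang4 to Ang had an SD of only 0.08 over the 8 arrays and that to Ang2 0.13, while each gene ranged over 1.52 to 1.67. The diet differences of Ang and Ang2 were 0.13 and 0.19. Without Control female 1 they were 0.155 and 0.25, without Control female 2 0.11 and 0.13, and without Western female 2 the sign turned (-0.25 and -0.225). Whether the probes of these genes also bind each other's transcripts was not tested, since probe sequences were not used here.

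Lyz1 and its paralog Lyz2 diverged instead. Lyz2, the lysozyme of macrophages, measured -1.65 and 0.36 in Western females, -0.64 and -1.37 in Western males, -0.72 and -1.25 in control females, and 0.69 and -0.62 in control males. It ranged over 2.34, against 0.31 for Lyz1, and the r between them was 0.31. Lyz2 was highest on Control male 1 and Western female 2, where Lyz1 measured 8.04 and 7.87 within its range of 7.73 to 8.04. Their promoter windows were 80.9% identical, against 44.7% for Ang4 and Ang.

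The alpha-defensin family as a whole also showed no diet difference. The 20 probes above background gave differences from -0.20 to 0.33, 10 positive and 10 negative, with a median of -0.006, and 0 had an unadjusted p under 0.05 (smallest adjusted p 0.989). Without Control female 1 the median was 0.04 (11 positive), and without Control female 2 it was -0.05 (7 positive). Probes annotated to 1 gene did not always give 1 value. The 3 Defa3 probes differed by 0.33, 0.002 and -0.10 between the diets, and the 2 Defa23 probes by 0.11 and -0.01. The Defa5 probe correlated with the other family probes at r from -0.04 to 0.90 (median 0.41). Family members are near-identical in sequence, so that a probe may bind several of their transcripts, and no value here can be assigned with certainty to Defa5 alone. The extent of this cross-hybridisation was not tested.

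Many alpha-defensin spots were read above 50% of the scanner's saturation value, while those of the 5 products stayed below 50%. The saturation value was 659123 to 667433 intensity units, and no spot was marked as saturated. The alpha-defensin probes reached from 3.38% to 83.3% of it, and 13 of 20 exceeded 50% on at least 1 array. Lyz1 lay at 16.2% to 28.9%, the tested Itln1 probe at 23.3% to 43.3% and Defa5 at 15.8% to 30.1%, and on all 8 arrays their signals came from the low-gain scan, which the scanner software scales up to the high-gain one. Ang4 lay at 1.64% to 4.96% (low-gain scan on 3 arrays) and Mmp7 at 0.49% to 1.96% (on 0 arrays). The 2 dimmer products had the wider ranges. On signals with no scaling between arrays the highest exceeded the lowest by 4.03-fold for Mmp7 and 3.05-fold for Ang4, against 1.89-fold for Defa5, 1.84-fold for Itln1 and 1.77-fold for Lyz1. Within the alpha-defensins, the 3 probes that stayed under 25% of the saturation value (Defa25, Defa26 and Defa-ps1) ranged over at least 2.81-fold, and those over 50% ranged over at most 2.09-fold. Over the 20 probes, which share arrays and belong to close paralogs, r between the highest percent of saturation and the log2 range was -0.76 (rho = -0.66). The part of the scanner's range in the narrow spread of the bright probes was not tested.

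**Figure D4:**
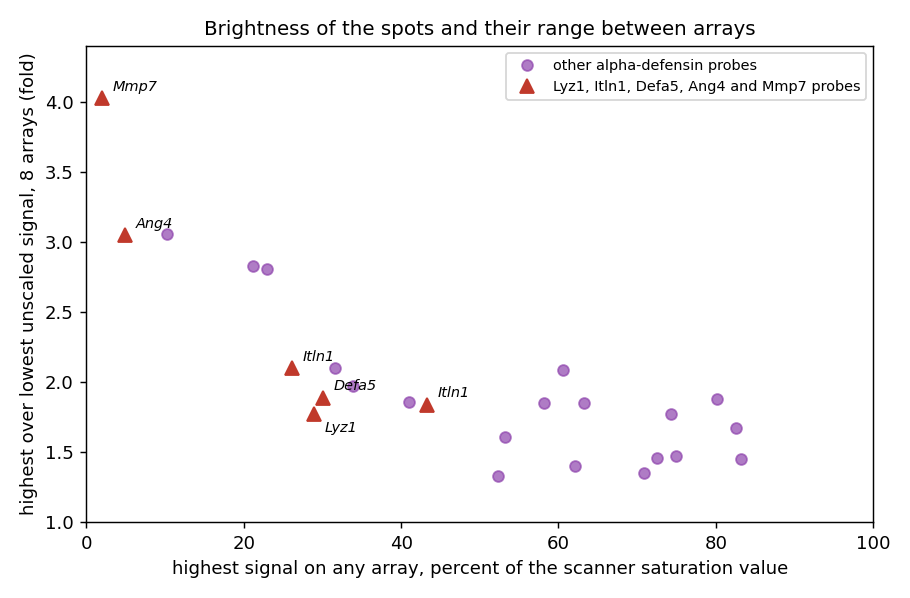
Highest unscaled signal over lowest across the 8 arrays (fold, vertical axis) against the highest signal on any array as a percent of the scanner's saturation value (horizontal axis), with triangles for the probes of Lyz1, Itln1, Defa5, Ang4 and Mmp7 and circles for 19 other alpha-defensin probes. Mmp7 and Ang4, dim on this scale, ranged over 4.03-fold and 3.05-fold, while the alpha-defensin probes above 50% stayed at or under 2.09-fold.

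Other secreted products tied to Paneth cells or their surroundings were counted as a list. Of 19 such genes 14 were tested, 0 passed for diet and 0 had an unadjusted p under 0.05. Of the 14, 6 were higher and 8 lower, with a median of -0.03 beside -0.06 for all genes. Zg16, a goblet cell lectin, differed by -0.14 ± 0.16, and the antibacterial lectins Reg3b and Reg3a by -0.04 ± 0.17 and 0.22 ± 0.19 (SE). Mptx1, a pentraxin made by Paneth cells, measured 3.28 and 5.75 in Western females, 4.13 and 4.57 in Western males, 2.86 and 3.53 in control females and 4.70 and 4.03 in control males. It differed by 0.65 ± 0.56 between the diets (SE, adjusted p = 0.995), with its highest value on Western female 2. Without that array its difference was 0.04. Without Control female 1 the differences were 0.49 for Mptx1, -0.11 for Zg16, -0.075 for Reg3b and 0.235 for Reg3a, and without Control female 2 they were 0.82, -0.17, -0.008 and 0.205.

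Between the sexes the same list held 5 of 14 genes with an unadjusted p under 0.05, 1 higher in females (background 2.66%) and 4 lower (background 1.19%), and 0 past the adjusted threshold (adjusted p = 0.905 for each). These 5 are named after their values were seen. Reg3g, an antibacterial lectin of enterocytes and Paneth cells, averaged 7.01 ± 0.20 on female and 8.08 ± 0.45 on male arrays (SD, n = 4 each), a difference of -1.07 ± 0.26 (SE), and each female array lay below each male one (no overlap in this direction for 1.03% of genes). Dmbt1, a bacteria-binding mucosal protein, differed by -1.41 ± 0.37 and averaged 5.35 ± 0.08 against 6.76 ± 0.70. Lypd8, which keeps flagellated bacteria off the epithelium, differed by -0.70 ± 0.22, and Retnlb is a goblet cell resistin-like protein. Retnlb was above background on 2 of 4 female and 4 of 4 male arrays, so its place among the 4 lower genes rests in part on background readings and no size is given. Reg3a was higher in females by 0.61 ± 0.19. Without the library labelled Control female 1 the differences were -1.01 for Reg3g, -1.43 for Dmbt1, -0.67 for Lypd8 and 0.59 for Reg3a. They were -1.13, -1.375, -0.73 and 0.62 without Control female 2, in the same order. Within slide 1 they were -1.55, -1.97, -1.04 and 0.83, and within slide 3 -0.50, -0.93, -0.59 and 0.81. The 5 core products (-0.48 to 0.07) had no unadjusted p under 0.05 in this comparison, and whether the other products differ from them was not tested.

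Regulators of Paneth cell fate and granule formation were no different. All 27 were tested, 0 passed and 0 had an unadjusted p under 0.05 for diet, with 13 higher, 14 lower and a median of -0.005. Agr2 and Xbp1, which serve protein folding and the secretory load of such cells, differed by -0.10 ± 0.19 and 0.23 ± 0.16 (SE), by 0.03 and 0.17 without Control female 1, and by -0.23 and 0.29 without Control female 2. The smallest unadjusted p, 0.0651, belonged to Tcf7l2, the Tcf4 factor through which Wnt signals act in crypts. It measured -0.94 and -1.37 in Western females and -0.90 and -0.88 in Western males, against -0.57 and -0.70 in control females and -0.66 and -0.75 in control males. Each Western array thus lay below each control array (no overlap in this direction for 2.29% of genes), with a difference of -0.35 ± 0.16 (SE, adjusted p = 0.995), which was -0.32 without Control female 1 and -0.38 without Control female 2. Il22, a cytokine that induces antimicrobial genes in the epithelium, differed by -0.77 ± 0.35 (adjusted p = 0.995), and Control female 2 was its highest array (-1.82, against -3.68 to -3.14 on the other control arrays and -4.14 to -3.475 on the Western ones). Without Control female 2 its difference was -0.44, and without Control female 1 it was -1.1.

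Signals that Paneth cells give to neighbouring stem cells, and crypt Wnt ligands, formed the last list. Of 7 tested, 0 passed and 1 had an unadjusted p under 0.05, Wnt9b (lower, background 3.63%). Wnt9b was above background on 0 of 4 Western and 2 of 4 control arrays, so this rests on background readings and no size is given. The Notch ligands Dll1 and Dll4 differed by -0.02 ± 0.21 and -0.16 ± 0.20, and Wnt11 by -0.41 ± 0.39 (SE). Without Control female 1 these 3 were 0.02, -0.36 and -0.17, and without Control female 2 they were -0.05, 0.03 and -0.64.

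The genes whose pattern over the 8 arrays was most like each product were drawn from 12378 genes with a symbol that were above background on every array, by Pearson's r. Such a search over many genes and 8 arrays returns high values by its nature. For Defa5 they were Kit, a receptor kinase (r = 0.97), Ces1c, a carboxylesterase (0.955), and Ang4 (0.95). For Ang4 they were Ang (0.99), Ang2 (0.98) and Dld, a mitochondrial dehydrogenase subunit (0.98). For Mmp7 they were the noncoding Snhg1 (0.975), the replication and clock factor Timeless (0.97) and the vascular ligand Angpt2 (0.97). Lyz1 was most like Pde2a (0.94), Capn10 (0.94) and Sytl4 (0.90), and Itln1 most like Zbtb14 (0.97), Zfand1 (0.97) and Eif3b (0.965).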

How the data were processed

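Total RNA of mouse small intestine was measured on 8 Agilent arrays (design 026655), scanned in 1 colour and extracted by Agilent's software (Feature Extraction, version 10.7.3.1), as the file headers state. Its processed signal was used, a background-subtracted intensity per spot, deposited without scaling between arrays, per the file headers. Control spots (1377 per array) and outlier spots (94 to 216) were left out, 399 repeated probes averaged, log2 taken and each array's 75th percentile subtracted. Of 39429 probes, 26412 were named by unversioned accession through RefSeq (GRCm38.p6); the headers name mm9, so coordinates are given only for promoter windows. A probe entered if 2 or more arrays showed it well above background (25733 probes), and the brightest per gene was tested. Lyz1, Mmp7, Ang4 and Defa5 had 1 probe each. The number of arrays limits the precision.

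Groups follow the labels. A mean per group was fitted over all 8 arrays with limma 3.58.1 in R 4.3.3 (4 residual and 2.01 prior degrees of freedom), with Benjamini-Hochberg adjustment over 21303 genes and a threshold of 0.05; the analysis was tested on simulated data. The products and gene lists were chosen with earlier results of these data known. Named from other lists were up to 2 genes with the highest mean signal and up to 2 with the smallest diet p; for each product, the 3 genes of highest r outside the defensin family. Alternatives were normexp background, quantile or no scaling, other probe filters, the mean of probes, scan day, slide, the replicate number and leaving out each array. Promoter identity came from global alignment (Biopython 1.88).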

Additional observations from a re-analysis of the deposited data

Results flagged for a closer look

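Of the 5 products, each taken over the 4 arrays of a diet and the 4 of a sex, 1 value stood far from the others. On the male arrays Mmp7 measured 4.10 on Control male 1, while the other 3 male arrays lay between 3.55 and 3.57. The gap to the nearest array was 0.967 of the whole range, and chance puts about 1 in 20 such groups of 4 beyond the limit used. Control male 1 was also the array with the highest smooth muscle (3.56) and fibroblast (2.77) marker means relative to the 8 arrays. Whether these tissues add to its Mmp7 signal was not tested.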

How the results depend on the processing

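No value of the 5 products passed an adjusted p of 0.05 under any alternative with a test (400 values, smallest adjusted p 0.774), but 52 of the 400 had the opposite sign to the value reported, 40 of the 52 on leaving out 1 array and 9 without scaling between arrays. For diet over both sexes, leaving out 1 array at a time gave Lyz1 -0.158 to -0.02, Itln1 -0.072 to 0.217, Defa5 -0.29 to 0.137, Ang4 -0.36 to 0.424 and Mmp7 -0.507 to 0.479. In females, leaving out 1 array at a time gave Lyz1 -0.164 to 0.052, Itln1 -0.26 to 0.256, Defa5 -0.402 to 0.452, Ang4 -0.467 to 1.102 and Mmp7 -0.735 to 1.237. In males, leaving out 1 array at a time gave Lyz1 -0.261 to 0.017, Itln1 -0.142 to 0.437, Defa5 -0.385 to 0.03, Ang4 -0.769 to 0.261 and Mmp7 -0.543 to -0.015. For the difference of the diet effect between females and males, leaving out 1 array at a time gave Lyz1 -0.073 to 0.205, Itln1 -0.439 to 0.14, Defa5 -0.224 to 0.63, Ang4 -0.213 to 1.356 and Mmp7 -0.456 to 1.516. For female minus male, leaving out 1 array at a time gave Lyz1 -0.125 to 0.014, Itln1 -0.079 to 0.21, Defa5 -0.361 to 0.066, Ang4 -0.555 to 0.229 and Mmp7 -0.974 to 0.012. The number of genes past the threshold, 0 in each of the 5 comparisons, stayed at 0 under every alternative except on leaving out a control female array: it was 0 to 385 for diet in females, 0 to 2 for the difference between the sexes in the diet effect and 0 to 3 for sex, the highest each time without the library labelled Control female 1, and 0 for diet overall and in males. Removing the scaling between arrays, an alternative added after the data were seen, moves all genes alike by its construction: each product shifted by 0.241 for diet, 0.259 in males, 0.224 in females and -0.169 for female minus male. The sign thereby turned for Lyz1 (0.152), Mmp7 (0.228) and Defa5 (0.165) for diet, for Lyz1 (0.137), Ang4 (0.005) and Defa5 (0.081) in males, for Lyz1 (0.168) and Itln1 (0.222) in females, and for Itln1 between the sexes (-0.104). Itln1 in females, reported at -0.002, was 0.028 with normexp on the median signals (also added later, as the mean signal planned for it could not be run on these files) and 0.045 with the mean of its probes, and Mmp7 was 0.101 for diet with scan day as a block. The cause of these last 3 turns was not tested. Quantile scaling and the other probe filters turned no sign. With the replicate number as a block, the diet difference of Mmp7 was again -0.014 and 0 genes passed in each comparison. The replicate 1 minus replicate 2 difference, correlated over genes between 2 groups, had r from -0.118 to 0.352. These values do not show same-numbered arrays to be paired. Of the 40 within-slide values, 24 moved by more than the replicate SD. The number of arrays, 2 per group, limits the precision.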
